A study of Mus musculus with 16 samples.

Results

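Sin3A loss was examined in CD4 T cells kept in interleukin 7 (IL-7), the cytokine that holds resting T cells alive without activating them. The comparison covers 8 of the 16 libraries of the series, chosen by their labels: 4 Sin3A-deficient libraries (BASALTAM955, BASALTAM957, BASALTAM959 and BASALTAM960) and 4 Sin3A-sufficient libraries (BASAL955, BASAL957, BASAL959 and BASAL960). All came from CD4 T cells of mice aged 2 months on a C57BL/6 J background with the genotype Rosa26-CreERT2 +/- Sin3AF/F. Deficient cells spent 6 days in IL-7 with tamoxifen, and sufficient cells spent 6 days in IL-7 without it. Tamoxifen switches on a Cre recombinase that the Rosa26 locus expresses in every cell type, and Cre then cuts out the floxed part of Sin3a. The sufficient cells carry the same Cre and the same floxed alleles. No tamoxifen-treated cells without floxed alleles were analysed here, so Sin3A deletion and tamoxifen itself cannot be told apart. BASAL959 and BASALTAM959 are labelled female and the other 6 libraries male. The other 8 libraries, 4 deficient and 4 sufficient, spent 3 further days under conditions that polarize T cells towards Th17, the subset that makes interleukin 17. Here they lend their replicate spread to the fit and serve as a point of reference.

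Sin3A is a scaffold protein without DNA-binding activity of its own. It holds histone deacetylases and a histone demethylase together and is brought to genes by sequence-specific factors, among them the Mxi1 and Mad partners of Max. Its textbook role is repression of transcription, though Sin3 complexes also sit at active genes. IL-7 acts through a receptor built of the IL-7 receptor alpha chain and the common gamma chain Il2rg, and signals through JAK kinases to the transcription factor STAT5, which switches on genes such as Cish, Pim1 and Il2ra.

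The IL-7 libraries held 21044031 to 28613834 restored reads. The authors' deposited table names a gene only if its log2 change in deficient Th17 cells is negative, so no count of named genes below includes genes that were higher there. Levels are normalized counts, in the order BASAL955, BASAL957, BASAL959 and BASAL960 for sufficient cells, with deficient libraries in the matching order. Differences are on the log2(normalized count + 1) scale, deficient minus sufficient, with 4 libraries in each group. The sufficient library BASAL960 stood apart: the first principal component of the 8 libraries carried 50.8% of the variance, with a loading of 0.78 for BASAL960, and results that rest on it are given with and without it. P-values measure the spread between these libraries, since the labels do not say whether the number in a library name is a separate mouse.

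Sin3a itself was read first, since it checks the labels. Sufficient libraries held 2761, 2438, 2213 and 2686 normalized counts of Sin3a, and deficient libraries 2358, 2148, 2164 and 2177. The lowest sufficient library lay below the highest deficient library, so the groups overlapped. The log2 change was -0.19 ± 0.08 (SE), and it did not pass the limma test (adjusted p = 0.178). It passed in a fit on the IL-7 libraries alone with the number as a block (adjusted p = 0.0392, log2 change -0.19). In Th17 cells the log2 change was -0.24 (limma adjusted p = 0.0109). Counts over the whole gene include any exons left outside the deleted part, so the size of this fall does not measure how many cells lost Sin3A. The libraries called deficient below are those labelled so.

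Of 12852 rows of the table that were tested, with or without a name, 592 passed a limma adjusted p of 0.05 (4.61%). Of these, 292 were higher (2.27%) and 300 lower (2.33%) in deficient cells, so the calls over the whole table fell evenly on both sides. Among the 6051 tested rows with a name, 262 passed (4.33%): 47 rose (0.777%) and 215 fell (3.55%). Among the 6801 rows without a name 330 passed (4.85%), 245 higher and 85 lower, the opposite balance. Names exist only for genes listed as lower in deficient Th17 cells, and the shares for named rows are the background for every group below. The median log2 change was -0.05 over named rows and 0.00 over all rows. Of the 6051 named rows 3613 had a log2 change below 0, and 1143 had an unadjusted limma p under 0.05. These are the background for such counts in the lists below. Genes of a list are measured in the same libraries and can move together, so a count of signs is not a count of independent results.

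How many genes passed moved with single libraries. With the number in the library name as a block in the 16-library fit, 426 named rows passed, 72 higher and 354 lower (5.85% of those tested). Without BASAL960, 160 named rows passed, 31 higher and 129 lower (2.13%). Without BASAL957, BASALTAM957 and the Th17 pair of the same number, 7 passed. Of the 262 called genes, 144 were called again without BASAL960 and 64 kept their call whichever 1 IL-7 library was left out, and all 262 kept their direction without BASAL960 and without the BASAL957 number. The 6 genes called in every alternative that tested them were Bcl3, Fam221a, Fsd1l, Gpr97, Neb and Pigz. In 163 of the 215 falls BASAL960 was the highest sufficient library. The median of the 215 log2 changes was -0.85 with it and -0.71 without it. Groups are called separate below where every deficient library lies on one side of every sufficient library, which held for 621 named rows with deficient lower (10.3%) and 232 with deficient higher (3.83%).

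The deepest falls that kept their call whichever library was left out included 6 genes of varied function. Pigz encodes a mannosyltransferase of the glycosylphosphatidylinositol (GPI) anchor pathway. It stood at 174, 129, 183 and 167 in sufficient and 35.2, 25.5, 49.5 and 40.5 in deficient libraries (log2 change -2.11 ± 0.20 (SE), limma adjusted p = 3.52e-05), the lowest adjusted p of the genes described here. Gpr97, an adhesion receptor of the G protein-coupled class, went from 153, 208, 258 and 292 to 39.0, 37.0, 66.0 and 66.2 (log2 change -2.12 ± 0.31 (SE), limma adjusted p = 0.00170). For both genes the groups stood far apart. Neb encodes nebulin, the giant ruler protein of the skeletal muscle thin filament. Its levels were 689, 579, 621 and 749 against 206, 173, 213 and 210.5 (log2 change -1.71 ± 0.21 (SE), limma adjusted p = 0.000508). Sapcd2, a regulator of spindle orientation, went from 32.3, 63.9, 29.5 and 165 to 6.65, 10.6, 12.8 and 5.93 (log2 change -2.58 ± 0.41 (SE), limma adjusted p = 0.00206). Podnl1, a leucine-rich repeat protein of the matrix, went from 401, 567, 508 and 933 to 186, 185, 159 and 294 (log2 change -1.51 ± 0.23 (SE), limma adjusted p = 0.00196). The groups of each of these genes were separate. AA467197, a mitochondrial protein induced in inflammation, went from 383, 496, 419.7 and 564 to 104, 143, 184 and 123 (log2 change -1.76 ± 0.32 (SE), limma adjusted p = 0.00559).

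**Figure D1:**
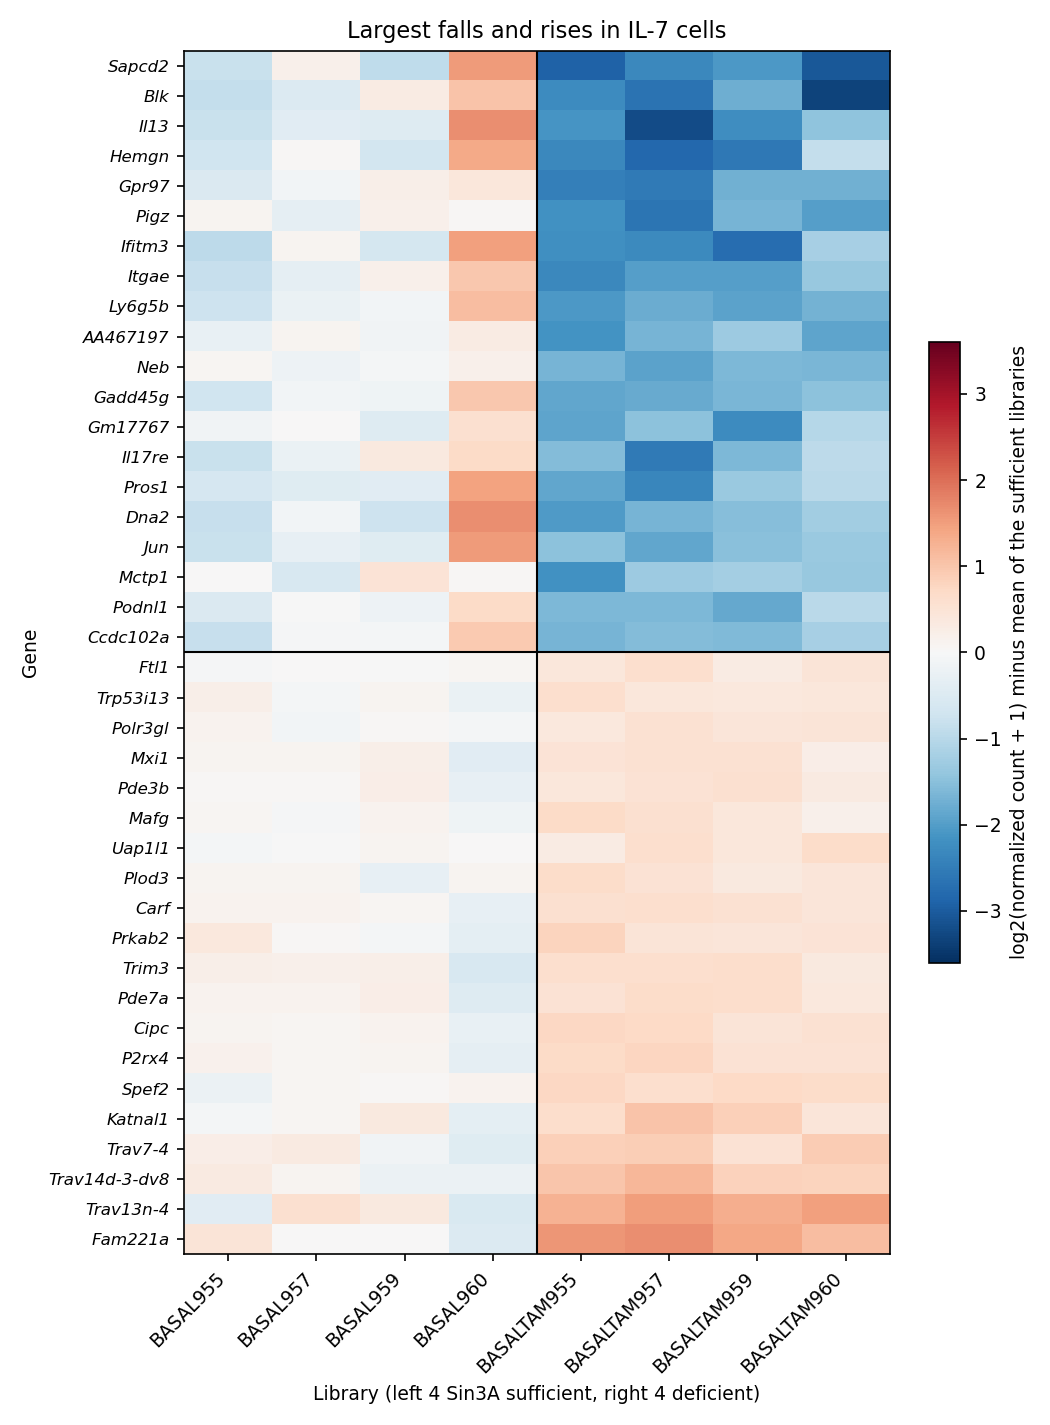
Log2 difference of each IL-7 library from the mean of the 4 sufficient libraries, for 20 falls and 20 rises. These are the deepest falls and largest rises among called named genes with separate groups and a higher group mean of at least 50. The 4 left columns are sufficient and the 4 right columns deficient libraries, colours run from blue (lower) to red (higher) and stop at 3.6 either way, and the line between the rows parts falls from rises. The genes were chosen for this difference, and BASAL960 is the reddest sufficient column in many of the falls.

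The rest of the 20 deepest falls took in cytokine, adhesion and signalling genes. Ly6g5b, a member of the Ly6 family, fell from 122, 174, 192 and 442 to 48.5, 59.0, 53.2 and 62.3 (log2 change -1.88 ± 0.35 (SE), limma adjusted p = 0.00734), and its groups did not overlap. Ccdc102a, a coiled-coil gene, fell by the test as well (-1.50, limma adjusted p = 0.0117). Hemgn, a nuclear protein of blood progenitors, had 91.4 ± 71.3 in sufficient and 19.3 ± 14.9 in deficient libraries (mean ± SD, n = 4; -2.15, limma adjusted p = 0.0154). Il17re, a receptor chain for interleukin 17C, had 170.4 ± 73.4 in sufficient and 53.02 ± 22.8 in deficient libraries (-1.66, limma adjusted p = 0.0188). Mctp1, a calcium-binding membrane protein, had 87.8 ± 26.0 in sufficient and 30.0 ± 8.05 in deficient libraries (-1.52, limma adjusted p = 0.0271). Dna2, a nuclease and helicase of DNA replication, had 346 ± 329 in sufficient and 85.8 ± 19.0 in deficient libraries (-1.63, limma adjusted p = 0.0258). Gm17767, a gene with no given function here, had 68.5 ± 22.4 in sufficient and 21.1 ± 8.13 in deficient libraries (-1.67, limma adjusted p = 0.0222). Pros1, the anticoagulant protein S, which activated T cells also make, stood at 124, 137, 142 and 512 against 50.4, 36.1, 73.3 and 94.9 (-1.63, limma adjusted p = 0.0241). The high mean of its sufficient group came from BASAL960. With 1 library left out, calls ended for Hemgn (BASALTAM957; adjusted p up to 0.0643), Il17re (BASAL960 or BASALTAM957; adjusted p up to 0.0738) and Pros1 (BASALTAM955 or BASALTAM957; adjusted p up to 0.0949), and for Mctp1 (BASAL959, BASAL960, BASALTAM955 or BASALTAM957; adjusted p up to 0.0970), Dna2 (BASAL957, BASALTAM955, BASALTAM957 or BASALTAM959; adjusted p up to 0.0863) and Gm17767 (BASAL957, BASAL960, BASALTAM955, BASALTAM957 or BASALTAM959; adjusted p up to 0.0726).

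Among receptor chains of IL-7 and related cytokines every call was a fall, as were 215 of the 262 calls among all named genes. The list held IL-7, IL-2 and related receptor chains with their JAK and STAT5 partners. Of its 11 tested genes 3 fell and none rose, with a median log2 change of -0.41 (-0.36 without BASAL960). Of the 3, Il2rg alone is a chain of the IL-7 receptor. With the block 6 fell, and without BASAL960 2 fell. Il2ra, the alpha chain that gives the IL-2 receptor its high affinity, was at 4229, 5448, 4956 and 10811 in sufficient and 2113, 2208, 2776 and 3939.7 in deficient libraries (log2 change -1.15 ± 0.23 (SE), limma adjusted p = 0.0112). The groups did not overlap, although BASALTAM960 came close to the lowest sufficient library. Il2rg, the common gamma chain shared by the receptors for IL-2, IL-4, IL-7 and other cytokines, was at 7289.7, 7549, 7009 and 8864 against 5734, 5344, 5617 and 6042 (log2 change -0.43 ± 0.08 (SE), limma adjusted p = 0.00666). Its groups were separate too, with a smaller log2 change than that of Il2ra. Il4ra, the chain that pairs with it for interleukin 4, was at 13835, 20608, 17167 and 30836 against 10468, 11281, 12512 and 11446 (log2 change -0.79 ± 0.19 (SE), limma adjusted p = 0.0265), with BASAL960 more than any other library above the rest. The calls of Il2ra and Il4ra ended when 1 library was left out: Il2ra (BASALTAM957; adjusted p up to 0.0518) and Il4ra (BASAL957, BASAL960, BASALTAM955 or BASALTAM957; adjusted p up to 0.0823).

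STAT5 target genes followed with 7 of 22 falling and none rising (median -0.52, -0.35 without BASAL960, when 4 fell). With the block 9 fell. Cish, the STAT5-induced inhibitor that feeds back on the receptor, was at 2935, 3629, 3545 and 5966 against 2083, 1941, 2417 and 2352 (log2 change -0.82 ± 0.17 (SE), limma adjusted p = 0.0116). Pim1, a survival kinase, was at 11768, 11721, 11461 and 10341 against 7406, 6985, 7844 and 6801 (log2 change -0.64 ± 0.17 (SE), limma adjusted p = 0.0455), and here BASAL960 was the lowest sufficient library. In both genes the groups were separate. Osm, oncostatin M, a cytokine of the IL-6 family, was at 1662, 1826, 1766 and 1961 against 1269, 1291, 1286 and 1169.9 (log2 change -0.52 ± 0.13 (SE), limma adjusted p = 0.0319). Lta, lymphotoxin alpha, was at 1867, 2309, 1889.6 and 4071 against 1111, 1228, 1274 and 1463 (log2 change -0.93 ± 0.20 (SE), limma adjusted p = 0.0144). Gadd45g, a stress sensor that boosts p38 signalling in T cells, was at 278, 433, 415 and 904 against 125, 131, 146 and 166 (log2 change -1.70 ± 0.33 (SE), limma adjusted p = 0.00947). Its groups were separate by a wide gap. Il2ra is also a target, and the seventh gene passed at a higher adjusted p. Calls that ended with 1 library left out were Cish (BASALTAM957; adjusted p up to 0.0521), Lta (BASALTAM955 or BASALTAM957; adjusted p up to 0.0530), Osm (BASAL957, BASAL959, BASAL960, BASALTAM955, BASALTAM957, BASALTAM959 or BASALTAM960; adjusted p up to 0.0813) and Pim1 (BASAL955, BASAL957, BASAL959, BASAL960, BASALTAM955, BASALTAM957, BASALTAM959 or BASALTAM960; adjusted p up to 0.123).

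**Figure D2:**
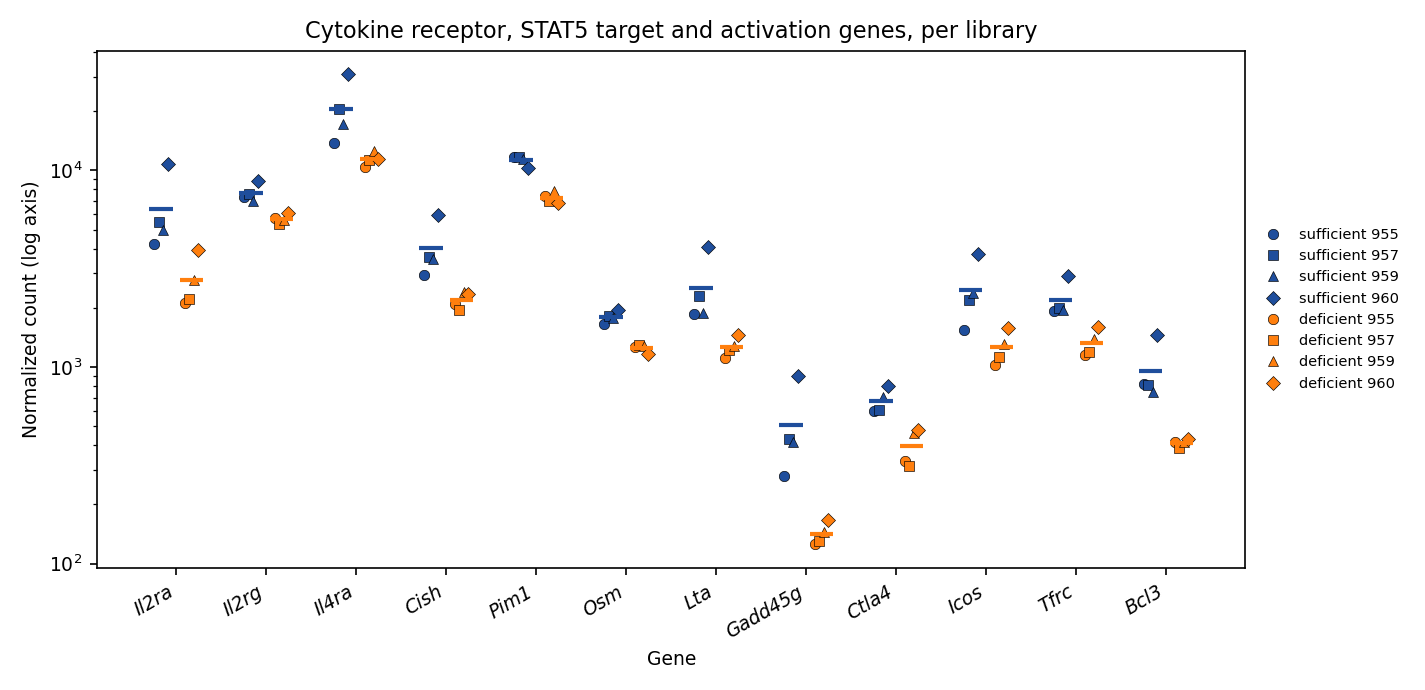
Normalized counts (log axis) of 12 cytokine receptor, STAT5 target and activation genes in each IL-7 library, sufficient in blue and deficient in orange, with 1 symbol shape per number and a bar at the group mean. Deficient libraries sit below sufficient ones in all 12 genes except for a small overlap in Icos, and BASAL960 is the highest point in all but Pim1.

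Promoter sequence is shown for 4 genes that differ in direction, as examples of the letters near their starts. Lta and Tnfrsf18 fell, and Cipc and Mafg rose. The windows are the 250 bases before the annotated start, from RefSeq on GRCm38.p6, written on the strand of the gene. That build differs from the NCBIM37 build named in the submitters' processing notes, and no coordinate of the deposited data was used. 2 motifs were searched on both strands: TTCNNNGAA, the core bound by STAT factors, and CACGTG, an E-box bound by Max with its partners. Each reads the same on both strands, and the 4 genes were chosen after their values and matches were seen. Capitals mark the matches.
Lta, chr17:35205352-35205601, minus strand, 2 matches of TTCNNNGAA: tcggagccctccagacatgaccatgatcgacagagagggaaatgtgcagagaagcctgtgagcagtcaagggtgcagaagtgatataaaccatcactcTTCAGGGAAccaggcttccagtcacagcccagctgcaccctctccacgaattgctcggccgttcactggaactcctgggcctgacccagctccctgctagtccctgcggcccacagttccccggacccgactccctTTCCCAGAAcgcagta
Tnfrsf18, chr4:156026072-156026321, plus strand, 1 match of TTCNNNGAA starting 99 bases before the start: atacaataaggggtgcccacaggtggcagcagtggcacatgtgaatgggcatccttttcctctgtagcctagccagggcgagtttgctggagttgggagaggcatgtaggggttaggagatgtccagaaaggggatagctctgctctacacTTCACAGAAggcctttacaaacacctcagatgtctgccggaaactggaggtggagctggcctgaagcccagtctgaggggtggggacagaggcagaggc
Cipc, chr12:86947093-86947342, plus strand, 1 match of CACGTG starting 17 bases before the start: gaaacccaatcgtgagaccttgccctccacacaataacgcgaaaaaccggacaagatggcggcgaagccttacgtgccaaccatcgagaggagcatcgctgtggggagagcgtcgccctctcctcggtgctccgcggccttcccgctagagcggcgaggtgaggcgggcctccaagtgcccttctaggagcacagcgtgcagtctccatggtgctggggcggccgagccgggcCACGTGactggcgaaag
Mafg, chr11:120633548-120633797, minus strand, 1 match of CACGTG starting 41 bases before the start: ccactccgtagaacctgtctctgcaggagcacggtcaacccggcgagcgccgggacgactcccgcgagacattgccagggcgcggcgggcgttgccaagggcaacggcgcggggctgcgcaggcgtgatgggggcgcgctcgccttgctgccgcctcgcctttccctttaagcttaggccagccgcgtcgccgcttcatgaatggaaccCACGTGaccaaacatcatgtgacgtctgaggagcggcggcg
Among all 32851 RefSeq windows of this length, 2306 (7.02%) hold TTCNNNGAA and 1978 (6.02%) hold CACGTG. A match is a run of letters and not a measured binding site. Among the genes described here CACGTG is also in the windows of AA467197, Gadd45g and Pim1, which fell, and of Polr3gl, which rose. Windows were matched to 174 of the 262 called genes (66.4%), under the 80% set as the least for comparing called genes with the rest, so that comparison is void and no share of called genes is read.

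Regulatory T cell genes held the largest share of falls among lists of 10 or more tested genes, with 6 of 10 tested genes falling and none rising (median -0.74, -0.69 without BASAL960). With the block 7 fell, and without BASAL960 4 fell. Foxp3, the factor that defines these cells, was not among the named genes, so the list cannot be read as a count of regulatory T cells. In bulk RNA, fewer cells of a type and less RNA of that type per cell cannot be told apart. Itgae, the alpha E integrin chain known as CD103, was at 231, 330.2, 469 and 813 against 82.7, 105, 104 and 159 (log2 change -1.91 ± 0.36 (SE), limma adjusted p = 0.00681). Ctla4, the inhibitory receptor that competes with Cd28, was at 596, 601, 700.4 and 804 against 333, 314, 463 and 481 (log2 change -0.78 ± 0.21 (SE), limma adjusted p = 0.0475). Both genes had separate groups. Icos, an inducible costimulator, was at 1536, 2196, 2369 and 3779 against 1022, 1127, 1305 and 1580.0 (log2 change -0.92 ± 0.19 (SE), limma adjusted p = 0.0132), with BASALTAM960 just above BASAL955. Tnfrsf18, known as GITR, fell less (log2 change -0.56 ± 0.15 (SE), limma adjusted p = 0.0395). Ecm1, extracellular matrix protein 1, fell too (log2 change -0.71 ± 0.16 (SE), limma adjusted p = 0.0169), and Il2ra is the sixth. Ikzf2, which encodes Helios, stood at 967, 1220.5, 1102 and 1515 against 777, 974, 964 and 1175 and did not pass (-0.30, limma adjusted p = 0.413). Calls ended with 1 library left out for Icos (BASALTAM955 or BASALTAM957; adjusted p up to 0.0548) and Ecm1 (BASAL957 or BASALTAM957; adjusted p up to 0.0560), and for Ctla4 (BASAL957, BASAL959, BASAL960, BASALTAM955, BASALTAM957 or BASALTAM959; adjusted p up to 0.159) and Tnfrsf18 (BASAL955, BASAL957, BASAL960, BASALTAM955, BASALTAM957, BASALTAM959 or BASALTAM960; adjusted p up to 0.123).

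T cell activation genes were lower as well: 5 of 15 fell, none rose and all 15 log2 changes were below 0 (median -0.71, -0.56 without BASAL960, when 5 fell again by count). Tfrc, the transferrin receptor that brings iron into dividing cells, was at 1932, 1994, 1944 and 2889 against 1147, 1190.1, 1384 and 1595 (log2 change -0.71 ± 0.14 (SE), limma adjusted p = 0.00803). Its 4 deficient libraries lay below the sufficient ones. Jun, a subunit of the AP-1 transcription factor, was at 147, 210.3, 190.5 and 749.8 against 91.3, 69.5, 89.8 and 102 (log2 change -1.55 ± 0.36 (SE), limma adjusted p = 0.0229), and its call ended without BASALTAM955, BASALTAM957 or BASALTAM959 (adjusted p up to 0.0807). Gadd45g, Icos and Il2ra are the other members that fell. Bcl3, a nuclear partner of NF-kappaB p50 and p52, was at 819, 811, 743 and 1455 against 414, 388, 417 and 429.8 (log2 change -1.16 ± 0.16 (SE), limma adjusted p = 0.00120). It kept its call in all 26 alternatives. NF-kappaB genes gave 2 falls in 16 (median -0.27), Bcl3 and Traf1, and 14 of the 16 changes were below 0.

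Among costimulatory receptors of the TNF receptor family 3 of 12 fell and none rose (median -0.26, -0.19 without BASAL960, when 2 fell). Tnfrsf25, the receptor for the cytokine TL1A, was at 2669, 2483, 2643 and 2543 against 1817, 1636, 1697 and 1651 (log2 change -0.60 ± 0.11 (SE), limma adjusted p = 0.00497), and the groups were separate. Traf1, an adaptor of these receptors, fell by less (log2 change -0.41 ± 0.11 (SE), limma adjusted p = 0.0382), and Tnfrsf18 is the third. Traf1 lost its call when 1 of 6 libraries was left out: Traf1 (BASAL955, BASAL957, BASAL959, BASALTAM955, BASALTAM957 or BASALTAM960; adjusted p up to 0.123). Inhibitory and costimulatory receptors gave 2 falls in 10, Icos and Ctla4 (median -0.78). Without BASAL960 Icos alone fell (median -0.51). Of 27 integrin and adhesion genes 2 fell: Itgae and Itgal, the alpha chain of LFA-1, which T cells use to hold on to other cells. Itgal was at 7257, 7995, 7701 and 9340.1 against 5884, 5956, 6132 and 6405 (log2 change -0.40 ± 0.08 (SE), limma adjusted p = 0.0100). Among 21 chemokine, lysolipid and homing receptors, Gpr97 fell and P2rx4, an ATP-gated ion channel, rose. Of 15 TGF-beta pathway genes only Itgae was called (median 0.00).

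Among markers of innate-like T cells every call was a fall, as were 215 of the 262 calls among all named genes. Levels also varied with the number in the library name. Of 6 tested genes of the gamma-delta and innate-like list 2 fell (median -1.42, -1.13 without BASAL960, when 1 fell). With the block all 6 fell. Tcrg-C1, a constant region of the gamma T cell receptor chain, was at 476, 625, 775 and 1418 against 138, 172, 215 and 581 (log2 change -1.69 ± 0.40 (SE), limma adjusted p = 0.0232, 0.000787 with the block). Within each number the deficient library was lower, while BASALTAM960 lay above BASAL955. Sox13, a transcription factor of gamma-delta T cells, was at 65.6, 49.1, 87.7 and 267 against 42.8, 18.5, 34.8 and 146, and did not pass without the block (-1.03, limma adjusted p = 0.352; 0.0284 with it). Cd163l1, a scavenger receptor of these cells, was at 408, 315, 575 and 1252 against 125, 108, 161 and 544 (-1.57, limma adjusted p = 0.114; 0.00191 with the block). Blk, a Src-family kinase of B cells that gamma-delta T cells also express, was at 202, 259, 451 and 746 against 75.1, 57.2, 106 and 35.6 (log2 change -2.50 ± 0.50 (SE), limma adjusted p = 0.0106). Blk was low in every deficient library and kept its call whichever 1 library was left out. The call ended for Tcrg-C1 (BASAL960, BASALTAM955, BASALTAM957 or BASALTAM959; adjusted p up to 0.0850).

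**Figure D3:**
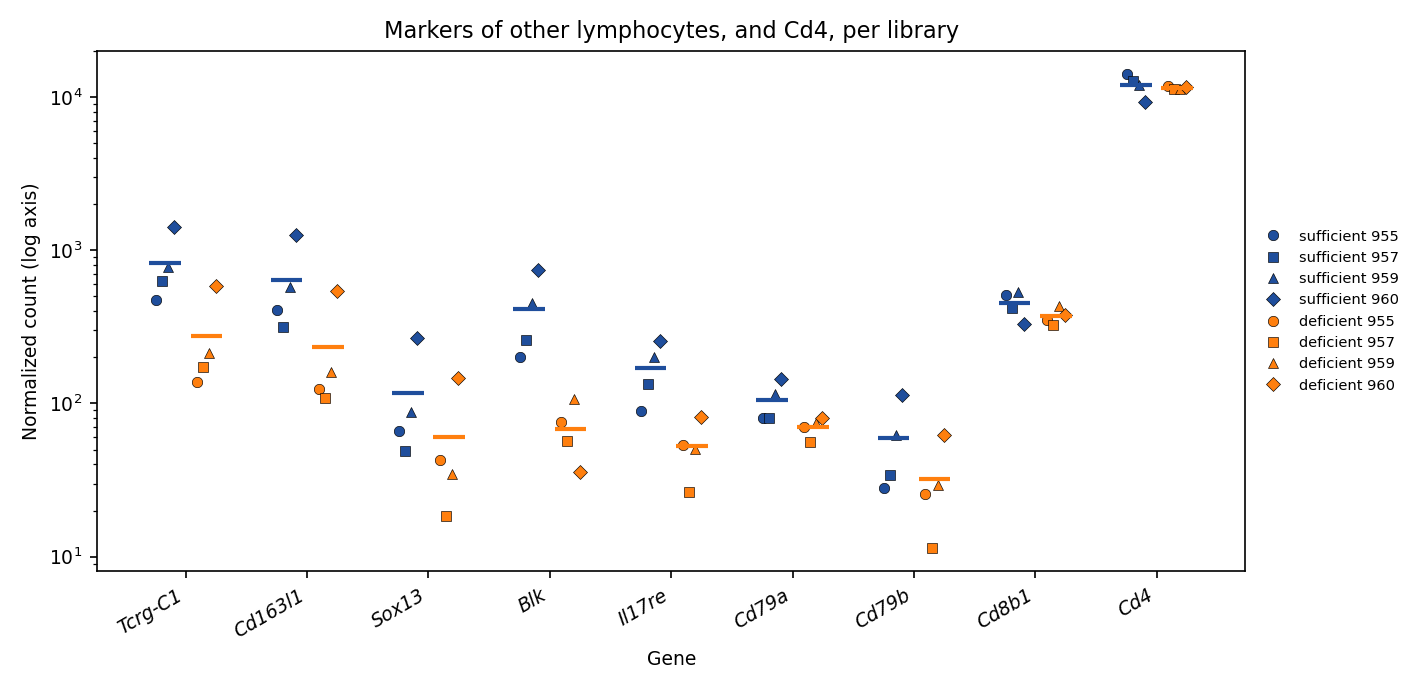
Normalized counts (log axis) in each IL-7 library for genes of innate-like and other minor cell types, sufficient in blue and deficient in orange, with 1 symbol shape per number and a bar at the group mean. BASAL960 is the highest library in every gene except Cd8b1 and Cd4, where it is the lowest sufficient library, and BASALTAM960 is the highest deficient library in Tcrg-C1, Cd163l1 and Sox13 and the lowest in Blk.

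Summed markers of cell types were compared between the groups. Sums over different genes do not measure cell shares, so they do not show how pure the libraries were. The CD4 T cell sum (Cd3d, Cd3e, Cd4, Thy1 and Lck, 5 of 8 listed genes) was 70559, 64783, 61866 and 61026 in sufficient and 61756, 60081, 57736 and 62716 in deficient libraries, two-sided exact permutation p = 0.143. The gamma-delta sum (Tcrg-C1, Sox13 and Cd163l1, 3 of 4) was 949, 989.9, 1437 and 2938 against 305, 298, 411 and 1272 (exact permutation p = 0.0857). The B cell sum (Cd79a, Cd79b and Blk, 3 of 7) was 311, 373, 629 and 1004 against 171, 125, 209.9 and 178 (exact permutation p = 0.0286). The CD4 T cell sum lay far above both in every library, and the B cell sums did not overlap between groups. That gap rested on Blk, itself among the deepest falls: Cd79a and Cd79b alone summed to 109, 114, 178 and 259 against 96.0, 67.8, 104 and 142, which overlapped (exact permutation p = 0.143). For CD8 T and NK cells (Cd8a, Cd8b1 and Nkg7, 3 of 8) the sum was 738, 821, 884 and 1038 against 517, 619.7, 759 and 858 (exact permutation p = 0.143). The regulatory T cell sum (Il2ra, Ctla4, Ikzf2 and Tnfrsf18, 4 of 5) was 9180.2, 10617, 9856 and 16838 against 5525, 5646, 6536 and 8009 (exact permutation p = 0.0286). Il2ra was its largest member, with a mean of 6361 in sufficient and 2759 in deficient libraries. Il2ra, Ctla4 and Tnfrsf18 were already called lower, so this sum restates those calls. Ikzf2, the member without a call, overlapped between groups. With 4 libraries against 4 the smallest two-sided p of this test is 0.0286. None of 9 myeloid markers had a usable row, and of 5 erythroid markers Alas2 alone did, at 12.7 against 16.9 (exact permutation p = 0.171). The part of these cell types in the gene differences was not tested. As a sign of RNA quality, mt-Co1, the only mitochondrial gene with a settled row, took 0.595, 0.566, 0.441 and 0.507 percent of counts in sufficient and 0.752, 0.735, 0.599 and 0.845 percent in deficient libraries (exact permutation p = 0.0286). Adjusted by Benjamini-Hochberg over the 7 exact permutation tests of the sums and this share, p was 0.0667 for B cells, regulatory T cells and mt-Co1, 0.150 for gamma-delta, 0.167 for CD4 and for CD8 T and NK cells and 0.171 for Alas2, so none passed 0.05. Within each of the 4 numbers the deficient library had the lower CD8 T and NK, gamma-delta, B cell and regulatory T cell sum and the higher mt-Co1 share, and the CD4 T cell sum was lower in 3 of 4. An exact permutation of signs within the numbers gave p = 0.125 for the sums and the share that moved one way in all 4, the smallest p this paired test can give, so it could not pass 0.05.

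Among helper T cell lineage genes few passed, although most log2 changes were below 0. Of 8 Th2 genes 2 fell, Il4ra and Il13, and 7 changes were below 0 (median -0.78). Without BASAL960 none of the 8 passed (median -0.44). Il13, a cytokine of Th2 and innate lymphoid cells, was at 56.0, 74.8, 71.6 and 315 against 21.9, 9.68, 20.2 and 35.6 (log2 change -2.26 ± 0.56 (SE), limma adjusted p = 0.0283), with BASAL960 far above every other library. Without BASAL960 the adjusted p of Il13 was 0.0669, and the call also ended without BASAL957, BASALTAM955, BASALTAM957 or BASALTAM959 (up to 0.110). Of 10 Th17 genes none passed, and all 10 log2 changes were below 0 (median -0.39, -0.28 without BASAL960). The lowest p-values were those of Maf, a transcription factor of helper T cells (-1.23, limma adjusted p = 0.0591; 0.0498 with the block), Il1r1, the interleukin 1 receptor (-1.27, limma adjusted p = 0.0717; 0.0141 with the block), and Rbpj, the DNA-binding partner of Notch (-0.33, limma adjusted p = 0.123). Of 11 Th1 and cytotoxic genes Il18r1 alone fell, the receptor through which interleukin 18 boosts interferon gamma. It was at 4295, 4833, 4935 and 5712 against 2393, 2399.5, 2672 and 3103 (log2 change -0.90 ± 0.18 (SE), limma adjusted p = 0.00928), with separate groups. 10 of the 11 Th1 changes were below 0 and 8 had an unadjusted p under 0.05 (median -0.73, -0.53 without BASAL960). Without BASAL960 Il12rb1, a receptor chain shared by interleukins of the IL-12 family and placed on both the Th1 and the Th17 list, passed as well (log2 change -1.31, limma adjusted p = 0.0431). With all libraries it had -0.97 and a limma adjusted p of 0.154. In the block fit 3 of the Th2, 2 of the Th17 and 4 of the Th1 genes fell.

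Interferon-induced genes were lower in deficient cells by an amount that varied with BASAL960. Of 27 tested, 2 fell and all 27 changes were below 0, with a median log2 change of -1.01 that shrank to -0.38 without BASAL960, when Ifitm3 and Gbp4 fell again (limma adjusted p = 0.0390 and 0.0491). The median over the 27 genes, each taken relative to its mean over the 4 sufficient libraries, was -0.59, -0.15, -0.64 and 1.37 in sufficient and -1.13, -0.99, -0.95 and -0.69 in deficient libraries on the log2 scale, without overlap. With the block 8 fell. Ifitm3, a membrane protein that blocks virus entry, was at 65.6, 137, 81.8 and 359 against 26.6, 25.5, 18.3 and 55.3 (log2 change -2.11 ± 0.48 (SE), limma adjusted p = 0.0190). Its groups were separate, as its place among the 20 deepest falls required. Gbp4, a guanylate-binding protein, was at 10769, 20858, 11536 and 48901 against 7093, 8008, 8497 and 9809 (log2 change -1.19 ± 0.33 (SE), limma adjusted p = 0.0484). Antigen presentation genes gave 3 falls in 10 and no rise (median -0.54, -0.31 without BASAL960, when 2 fell), and 7 fell with the block. H2-Q4, a non-classical class I molecule, had 21242 ± 5417 in sufficient and 11981 ± 836 in deficient libraries (-0.80, limma adjusted p = 0.0186). H2-M3, which presents formylated peptides, had 1449 ± 444 in sufficient and 907 ± 19.8 in deficient libraries (-0.63, limma adjusted p = 0.0225). H2-K1, a classical class I heavy chain, had 91471 ± 13101 in sufficient and 68284 ± 1661 in deficient libraries (-0.41, limma adjusted p = 0.0495). Reads of class I genes can be shared among near-identical copies, and whether this touched H2-Q4, H2-M3 or H2-K1 was not tested. Calls ended for Ifitm3 (BASAL957, BASALTAM955, BASALTAM957 or BASALTAM959; adjusted p up to 0.0640), Gbp4 (BASAL957, BASALTAM955, BASALTAM957, BASALTAM959 or BASALTAM960; adjusted p up to 0.136) and H2-Q4 (BASAL957, BASALTAM955 or BASALTAM957; adjusted p up to 0.0645), and for H2-M3 (BASAL957, BASALTAM955, BASALTAM957 or BASALTAM959; adjusted p up to 0.0702) and H2-K1 (BASAL957, BASAL960, BASALTAM955, BASALTAM957, BASALTAM959 or BASALTAM960; adjusted p up to 0.128).

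**Figure D4:**
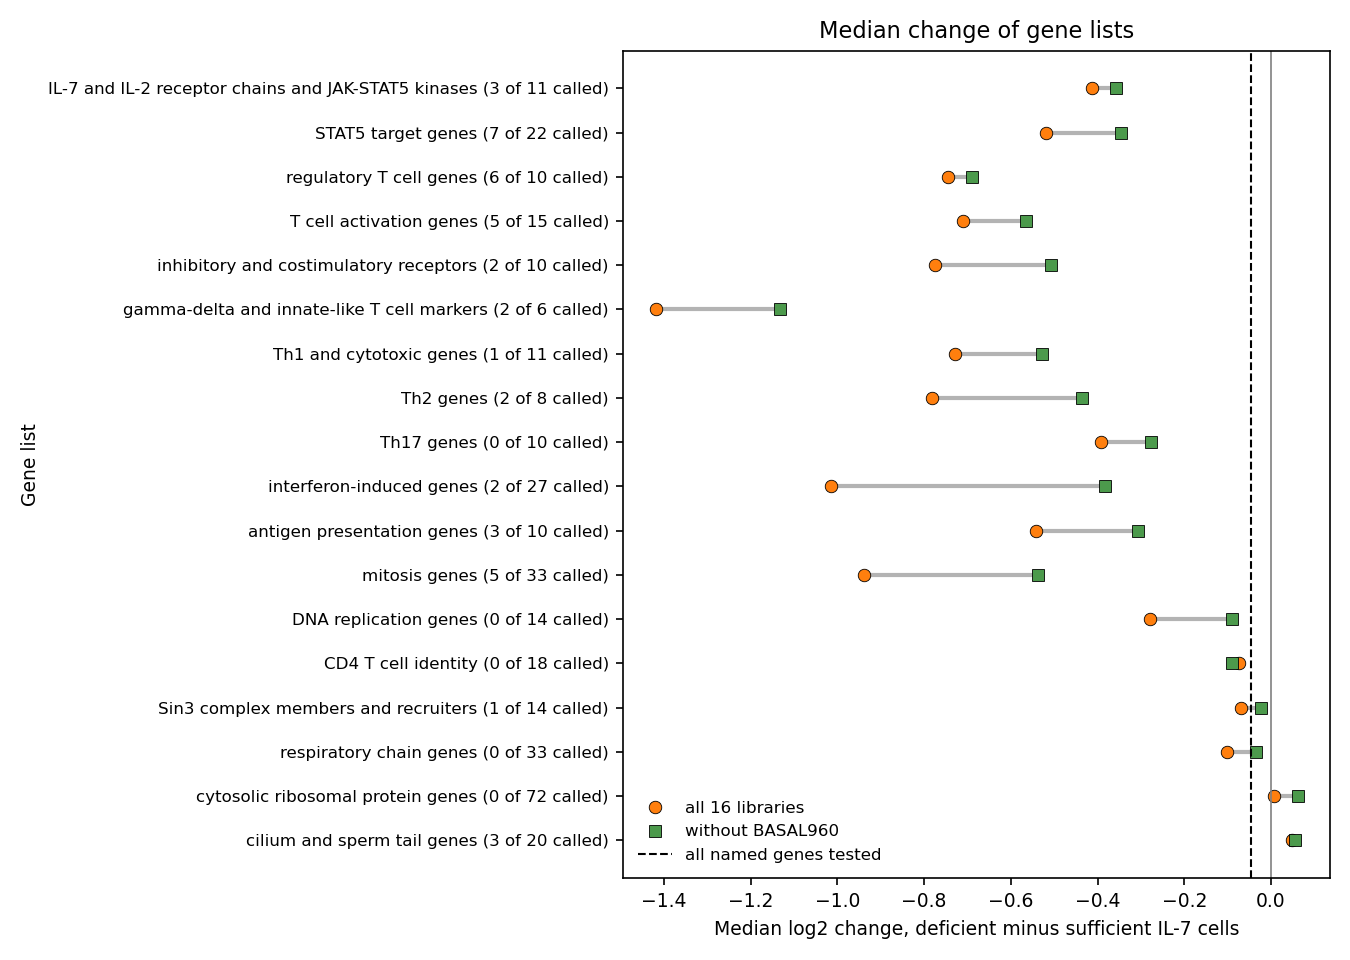
Median log2 change of the tested members of each gene list in IL-7 cells, with all libraries and without BASAL960, and in the row labels the number called. With all libraries the interferon-induced, mitosis and innate-like lists lie farthest to the left. Without BASAL960 the innate-like (-1.13), regulatory T cell (-0.69) and T cell activation (-0.56) lists do. The interferon median moves most when BASAL960 is left out, and the ribosomal, cilium, Sin3 complex and CD4 T cell identity lists lie near 0.

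Mitotic genes formed a similar case. Of 33 tested, 5 fell and none rose, 30 changes were below 0, and the median went from -0.94 to -0.54 without BASAL960, when Cenpa fell and Kif23, a motor protein of cell division named after its values were seen, rose (limma log2 change 0.54, adjusted p = 0.00195; with all libraries 0.29, adjusted p = 0.364). With the block 13 fell. Cenpa, the histone H3 variant that marks centromeres, was at 1062, 1189, 1204 and 1568 against 761, 794, 862 and 929 (log2 change -0.57 ± 0.11 (SE), limma adjusted p = 0.00632) and kept its call whichever 1 library was left out. Tpx2, a spindle assembly factor, was at 286, 473, 269 and 1253 against 90.3, 95.9, 165 and 363 (log2 change -1.61 ± 0.42 (SE), limma adjusted p = 0.0373). Aurkb, the mitotic kinase Aurora B, was at 204, 375, 201 and 897 against 78.0, 111, 122 and 265 (log2 change -1.40 ± 0.39 (SE), limma adjusted p = 0.0491). The groups of Tpx2 and Aurkb overlapped, and BASAL960 was the highest library in both. Ube2c, which works with the anaphase-promoting complex, had 506 ± 434 in sufficient and 163 ± 129 in deficient libraries (-1.57, limma adjusted p = 0.0495), and Fam64a had 286 ± 240.3 in sufficient and 80.8 ± 59.7 in deficient libraries (-1.70, limma adjusted p = 0.0361). Tpx2, Aurkb, Ube2c and Fam64a all lost their calls without BASAL960 (adjusted p 0.0776, 0.0991, 0.107 and 0.0766) and also without BASAL957, BASALTAM955, BASALTAM957 or BASALTAM959. Of 14 DNA replication genes none was called (median -0.28, -0.09 without BASAL960). E2f7, an E2F-family repressor, was at -1.41 (limma adjusted p = 0.0649, 0.0398 with the block), Tyms, thymidylate synthase, at -1.07, limma adjusted p = 0.104 and Pole2, a DNA polymerase epsilon subunit, at 0.34, limma adjusted p = 0.0873, with 0.0419 without BASAL960.

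Genes of arrest and death gave isolated calls. Of 7 cyclin-dependent kinase inhibitors Cdkn2a alone fell. This locus encodes inhibitors of the cell cycle. Its levels were 24.7, 35.0, 22.8 and 71.9 against 0, 5.28, 6.42 and 14.8, 1 deficient library being at 0 (log2 change -2.77 ± 0.67 (SE), limma adjusted p = 0.0254). Of 7 Bcl2 family genes Bak1, a pore former of apoptosis, fell (log2 change -0.47 ± 0.13 (SE), limma adjusted p = 0.0455), and of 9 p53 target genes Tnfrsf18 was the call. Hist1h2bc, an H2B gene, fell as 1 of 7 histone genes, with 20.7 ± 11.3 in sufficient and 6.14 ± 3.94 in deficient libraries (-1.62, limma adjusted p = 0.0382). Calls ended with 1 library left out for Cdkn2a (BASAL957, BASAL960, BASALTAM955 or BASALTAM957; adjusted p up to 0.0656), Bak1 (BASAL957, BASAL960, BASALTAM955, BASALTAM957 or BASALTAM959; adjusted p up to 0.126) and Hist1h2bc (BASAL957, BASAL959, BASAL960, BASALTAM955, BASALTAM957 or BASALTAM959; adjusted p up to 0.130).

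Rises were fewer and smaller than falls among named genes, 47 in all. Fam221a, a gene placed on the cilium and sperm tail list, rose most of the 20 rises taken by the rule above. It stood at 213, 155, 155 and 109 in sufficient and 467, 489, 404 and 335 in deficient libraries (log2 change 1.44 ± 0.18 (SE), limma adjusted p = 0.000508). It kept its call in all 26 alternatives. The cilium and sperm tail list as a whole gave 3 rises and no fall in 20 tested genes (median 0.05), the same counts as with the block and without BASAL960. Spef2, a sperm flagellar protein, was at 99.0, 122, 118 and 125 against 195, 175, 192 and 185 (log2 change 0.69 ± 0.13 (SE), limma adjusted p = 0.00734). Katnal1, a microtubule-severing subunit of the katanin family, was at 88.2, 98.1, 119.7 and 73.5 against 145, 192, 171 and 126 (log2 change 0.74 ± 0.16 (SE), limma adjusted p = 0.0170), and lost its call without BASALTAM957 or BASALTAM959 (adjusted p up to 0.0717). Groups were separate in all 3 genes, as the choice of genes required. Germline genes went the other way, with 2 falls in 8: Spo11, the enzyme that makes meiotic DNA breaks, at 385 ± 29.2 in sufficient and 173 ± 33.2 in deficient libraries (-1.16, limma adjusted p = 0.0172), and Tdrkh, a tudor protein of piRNA maturation, at 213 ± 4.68 in sufficient and 144 ± 12.1 in deficient libraries (-0.56, limma adjusted p = 0.00389). Spo11 lost its call without BASAL957 or BASALTAM955 (adjusted p up to 0.0634).

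Among 14 members and recruiters of the Sin3 complex, 1 rose and none fell (median -0.07). The rise was Mxi1, the Max partner that brings Sin3 to E-boxes, at 752, 756, 812 and 537 against 989.7, 1029.9, 1039.6 and 839.9 (log2 change 0.46 ± 0.12 (SE), limma adjusted p = 0.0321). With 1 library left out the call ended for Mxi1 (BASAL957, BASAL960, BASALTAM955, BASALTAM957 or BASALTAM959; adjusted p up to 0.108). Cipc, a repressor of the circadian CLOCK factor, rose from 995, 974, 1018 and 775 to 1561, 1539, 1303 and 1372 (log2 change 0.62 ± 0.16 (SE), limma adjusted p = 0.0354). Mafg, a small Maf protein that pairs with the stress factor Nrf2, rose from 1595, 1472, 1644 and 1365 to 2459, 2270.1, 1997 and 1730.2 (log2 change 0.47 ± 0.10 (SE), limma adjusted p = 0.0121). Ftl1, the light chain of the iron store ferritin, rose from 7389.8, 7678, 7499 and 7972 to 10104, 11609, 9317 and 10443 (log2 change 0.44 ± 0.09 (SE), limma adjusted p = 0.0112). Separate groups were a condition for the choice of each of these genes. Both Pde7a and Pde3b, phosphodiesterases that break down cyclic nucleotides, rose: Pde7a from 2147, 2168, 2321 and 1434 to 2866, 3149, 3086 and 2589 (log2 change 0.55 ± 0.12 (SE), limma adjusted p = 0.0127) and Pde3b by 0.46, limma adjusted p = 0.0491. P2rx4 went from 678, 647, 659.9 and 487 to 996, 1055, 876 and 881 (log2 change 0.63 ± 0.14 (SE), limma adjusted p = 0.0170). Calls ended with 1 library left out for Cipc (BASAL957, BASAL960, BASALTAM955, BASALTAM957 or BASALTAM959; adjusted p up to 0.111), Mafg (BASALTAM957; adjusted p up to 0.0556) and Ftl1 (BASALTAM957; adjusted p up to 0.0536), and for Pde7a (BASALTAM957; adjusted p up to 0.0556), Pde3b (BASAL955, BASAL957, BASAL960, BASALTAM955, BASALTAM957 or BASALTAM959; adjusted p up to 0.142) and P2rx4 (BASALTAM955 or BASALTAM957; adjusted p up to 0.0689).

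Smaller rises came from genes of varied function. Polr3gl, a subunit of RNA polymerase III, rose by 0.46 (limma adjusted p = 0.0112) and Prkab2, a regulatory subunit of the energy sensor AMPK, by 0.54 (0.0295). Trim3, a ubiquitin ligase, rose by 0.54 (0.0331 by limma, adjusted). Carf, a calcium-responsive transcription factor, rose by 0.53, Plod3, a collagen lysyl hydroxylase, by 0.49, Uap1l1 by 0.49 and Trp53i13 by 0.45 (limma adjusted p = 0.0265, 0.0265, 0.0206 and 0.0438). None of these log2 changes reached 1. 3 variable segments of the T cell receptor alpha chain rose: Trav13n-4 by 1.38, Trav14d-3-dv8 by 0.96 and Trav7-4 by 0.79 (limma adjusted p = 0.0277, 0.0143 and 0.0369). Their counts were low: Trav13n-4 stood at 15.1, 30.4, 26.1 and 13.5 against 49.4, 59.0, 51.3 and 57.3. Such segments are near-identical copies of one another, so which of them the reads came from is uncertain. Calls ended with 1 library left out for Polr3gl (BASALTAM957; adjusted p up to 0.0517), Prkab2 (BASAL957, BASAL959, BASAL960, BASALTAM955 or BASALTAM957; adjusted p up to 0.106), Trim3 (BASALTAM955, BASALTAM957 or BASALTAM959; adjusted p up to 0.105) and Carf (BASAL960, BASALTAM955, BASALTAM957 or BASALTAM959; adjusted p up to 0.0881), for Plod3 (BASAL957, BASAL959, BASALTAM955 or BASALTAM957; adjusted p up to 0.0937), Uap1l1 (BASAL957, BASALTAM957 or BASALTAM960; adjusted p up to 0.0788) and Trp53i13 (BASAL957, BASAL959, BASAL960, BASALTAM955, BASALTAM957, BASALTAM959 or BASALTAM960; adjusted p up to 0.143) and for Trav13n-4 (BASAL955, BASAL960, BASALTAM955, BASALTAM957, BASALTAM959 or BASALTAM960; adjusted p up to 0.0879), Trav14d-3-dv8 (BASALTAM957; adjusted p up to 0.0619) and Trav7-4 (BASAL959, BASAL960, BASALTAM955, BASALTAM957 or BASALTAM960; adjusted p up to 0.115).

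Several lists outside immunity each held a few falls. Of 64 solute carrier genes 5 fell: Slc35g1, Slc52a3 (a riboflavin transporter), Slco4a1 (an organic anion transporter), Slc35f2 and Slc9a5 (a sodium-proton exchanger). Slc52a3 was at 77.5, 98.9, 98.6 and 133 against 33.3, 51.1, 42.2 and 45.5 (log2 change -1.22 ± 0.21 (SE), limma adjusted p = 0.00510). The other 4 had log2 changes of -0.69, -0.80, -0.61 and -0.89 (limma adjusted p = 0.00280, 0.0117, 0.0132 and 0.0296). Of 14 GPI anchor genes 2 fell, Pigz and Mpdu1, which makes dolichol-linked mannose usable (log2 change -0.39 ± 0.07 (SE), limma adjusted p = 0.00793). Of 6 sarcomere and neuronal genes 2 fell, Neb and Stx1a, syntaxin 1A (log2 change -0.42 ± 0.09 (SE), limma adjusted p = 0.0116). Both genes kept their calls whichever 1 library was left out. Of 171 zinc finger genes 2 fell, Zfp296 (-0.97, limma adjusted p = 0.0293) and Zfp52 (-0.41, limma adjusted p = 0.0311), where 3.55% of all named rows fell. Of 19 cholesterol synthesis genes Scd2, a fatty acid desaturase, fell (log2 change -1.10 ± 0.30 (SE), limma adjusted p = 0.0441), and 5 fell with the block. Of 25 T cell receptor signalling genes Blk was the call. Calls ended with 1 library left out for Slco4a1 (BASALTAM957; adjusted p up to 0.0537), Slc35f2 (BASALTAM957; adjusted p up to 0.0556) and Slc9a5 (BASAL957, BASALTAM955, BASALTAM957 or BASALTAM959; adjusted p up to 0.106), for Zfp296 (BASAL960, BASALTAM955, BASALTAM957 or BASALTAM959; adjusted p up to 0.110) and Zfp52 (BASAL955, BASAL957, BASAL960, BASALTAM955, BASALTAM957 or BASALTAM960; adjusted p up to 0.0905) and for Scd2 (BASAL957, BASAL960, BASALTAM955, BASALTAM957 or BASALTAM959; adjusted p up to 0.139).

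Much of the T cell programme gave no call in the fit of all 16 libraries, to which the values below belong unless stated. The block fit of the IL-7 libraries alone called 306 rises and 915 falls among the 6051 named rows. By it CD4 T cell identity genes gave 7 falls and 1 rise, and naive and quiescent genes 4 falls and 1 rise. Cytosolic ribosomal protein genes gave 3 falls and 4 rises, and respiratory chain genes 4 falls. None of 18 CD4 T cell identity genes passed (median -0.07), and the lowest p-values were those of Cd3d (-0.18, limma adjusted p = 0.187), Lcp2 (-0.23, limma adjusted p = 0.206) and Trac (0.17, limma adjusted p = 0.233). Cd4 was at 14027, 12748, 11993 and 9335 against 11813, 11226, 11210.1 and 11593. None of 8 naive and quiescent genes passed, among them Pecam1 (-0.28, limma adjusted p = 0.164), Satb1 (0.41, limma adjusted p = 0.189) and Id3 (-0.56, limma adjusted p = 0.297). None of 72 cytosolic ribosomal protein genes passed (median 0.01), Rpl10a having the lowest p (-0.21, limma adjusted p = 0.0755), followed by Rpl24 (-0.58, limma adjusted p = 0.181) and Rps24 (0.19, limma adjusted p = 0.202). Of 33 respiratory chain genes none passed, while all 33 log2 changes were below 0 (median -0.10, -0.03 without BASAL960). Cox7b, a subunit of cytochrome oxidase, came nearest (-0.31, limma adjusted p = 0.0907; 0.0414 with the block), before Atp5g2 (-0.23, limma adjusted p = 0.169) and Ndufs8 (-0.20, limma adjusted p = 0.178). Mitochondrial ribosomal genes (0 of 19, median -0.10) were led by Mrps16 (-0.23, limma adjusted p = 0.135), Mrpl27 (-0.25, limma adjusted p = 0.189) and Mrps21 (-0.17, limma adjusted p = 0.378).

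Metabolic and stress lists likewise gave none in the fit of all 16 libraries. In the block fit of the IL-7 libraries alone, glycolysis genes gave 4 falls and 2 rises. ATF4 genes gave 2 falls there, unfolded protein genes 1 fall, and lysosome and autophagy genes 2 falls and 4 rises. Other histone and DNA modifying enzymes gave 5 falls and 3 rises, and estrogen and aryl hydrocarbon receptor genes 2 falls. NK and CD8 T cell markers gave 3 falls and 1 rise. Glycolysis genes (0 of 19, median -0.03) were led by Aldoa (0.34, limma adjusted p = 0.144), Eno1 (-0.41, limma adjusted p = 0.161) and Ldha (-0.29, limma adjusted p = 0.253). ATF4 amino acid stress genes (0 of 13) were led by Psph (-0.15, limma adjusted p = 0.322), Atf5 (-0.35, limma adjusted p = 0.322) and Sars (0.13, limma adjusted p = 0.357). Unfolded protein genes (0 of 13) were led by Edem1 (-0.15, limma adjusted p = 0.212), Atf6 (-0.47, limma adjusted p = 0.405) and Ern1 (0.16, limma adjusted p = 0.419). Lysosome and autophagy genes (0 of 18) included Ctsa (0.20, limma adjusted p = 0.0518; 0.0251 without BASAL960), Mcoln1 (0.31, limma adjusted p = 0.121; 0.0210 with the block) and Ctss (-0.34, limma adjusted p = 0.203). Other histone and DNA modifying enzymes (0 of 35, median -0.04) were led by Kdm4c (0.22, limma adjusted p = 0.0697), Kdm2a (-0.15, limma adjusted p = 0.0986) and Rcor1 (-0.21, limma adjusted p = 0.160). Estrogen and aryl hydrocarbon receptor genes, which tamoxifen could touch, gave 0 of 8, with Ahrr (-0.90, limma adjusted p = 0.121), Arnt (0.15, limma adjusted p = 0.411) and Rara (-0.19, limma adjusted p = 0.414) at the lowest p. A p that misses the threshold does not show that levels were alike: 1143 named rows had an unadjusted p under 0.05. NK and CD8 T cell markers (0 of 7) included Klrc1 (-1.06, limma adjusted p = 0.251), Cd160 (-1.06, limma adjusted p = 0.275) and Cd8b1 (-0.26, limma adjusted p = 0.455), and the 1 myeloid marker tested was Cd68 (0.11, limma adjusted p = 0.788).

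Th17 cells give a point of reference, within the limit that names exist only for genes listed as lower in deficient Th17 cells. A named gene that rose in IL-7 cells therefore differs in sign from Th17 by the way names were given, and nothing is read from the shares of rises. Of the 6051 named rows 2146 (35.5%) had a Th17 change that differed from the IL-7 change at a limma adjusted p of 0.05. Among the 20 deepest IL-7 falls 6 differed so, and 13 of the 20 were called lower in Th17 cells too, where 54.5% of all named rows were called lower. Pigz fell in Th17 cells by a log2 change of -1.70 against -2.11 in IL-7 cells (difference 0.41, limma adjusted p = 0.268 for the difference). Sapcd2 changed by -0.40 in Th17 against -2.58 in IL-7 cells (difference 2.18, limma adjusted p = 0.00667). By this fit Sapcd2 was lowered more in IL-7 cells, but its choice as the deepest of the 20 IL-7 falls favours such a difference. Its sufficient mean was 72.6 in IL-7 cells (41.9 without BASAL960) and 861 in Th17 cells. Il2ra changed by -0.59 against -1.15, a difference that did not pass (difference 0.56, limma adjusted p = 0.194). Ctla4 changed by -1.72 against -0.78 (difference -0.95, limma adjusted p = 0.0199), and Tnfrsf18 by -1.72 against -0.56 (difference -1.16, limma adjusted p = 0.000404), so both fell more in Th17 cells. The 2 stages have no libraries in common.

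**Figure D5:**
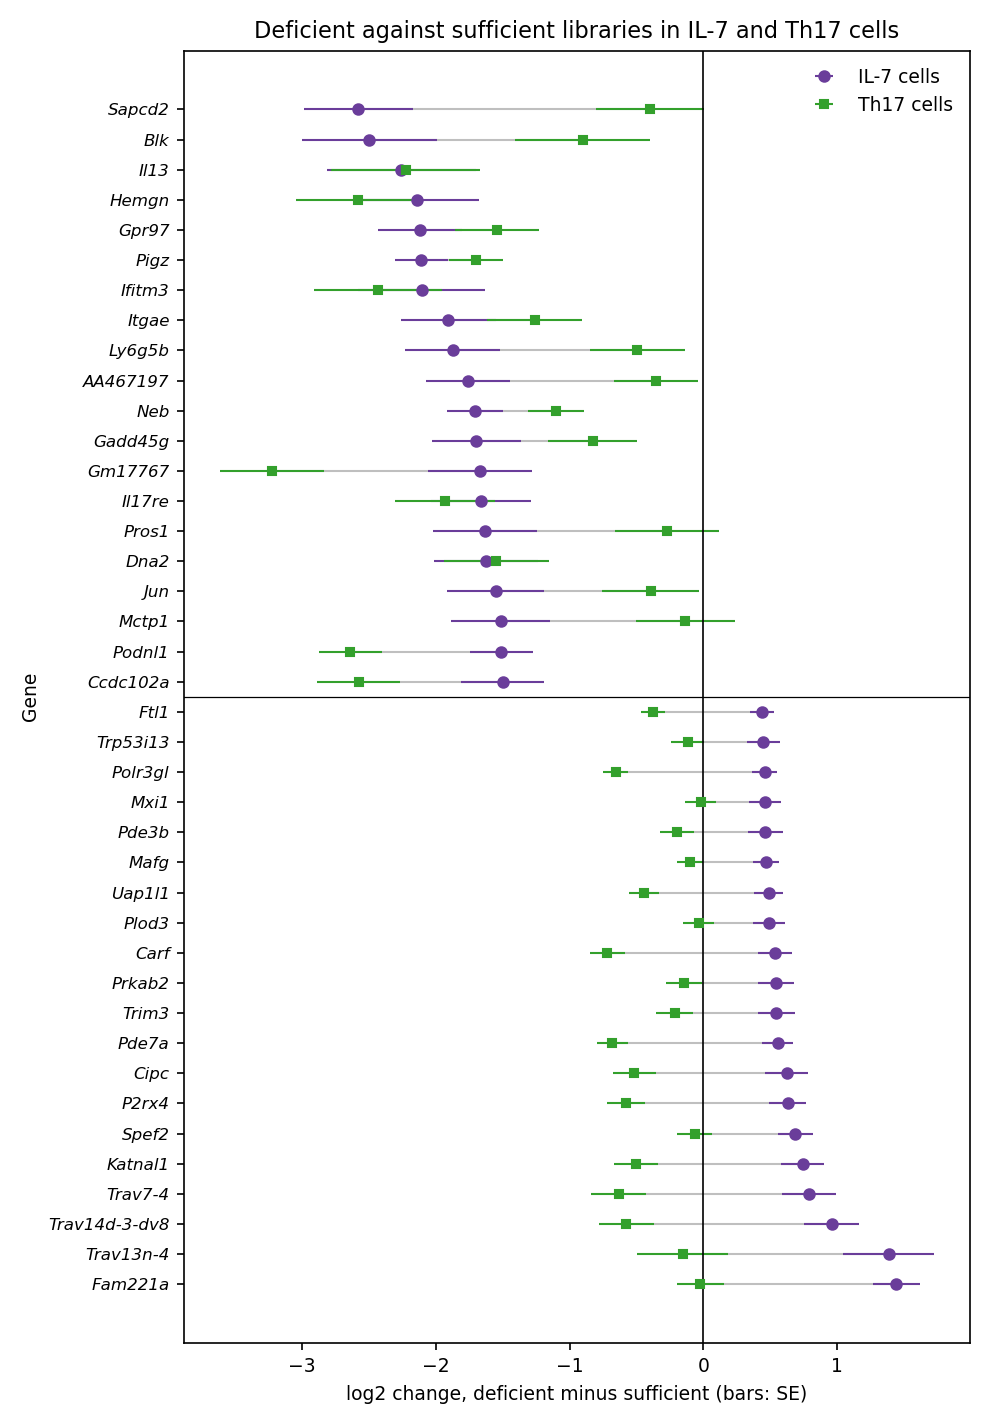
Log2 change, deficient minus sufficient, of the 20 deepest falls (upper rows) and the 20 largest rises (lower rows) in IL-7 cells (purple circles) and in Th17 cells (green squares), with bars of 1 SE and a grey line joining the pair. All Th17 squares lie at or below 0 because of how names were given, while the genes were chosen for their IL-7 change.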

How the data were processed

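RNA of 16 libraries, 4 per group, was measured by stranded poly(A) sequencing, and the groups were taken from the library titles and labels. The submitters' processing notes name Trim Galore 0.4.4, STAR 2.6, featureCounts, edgeR, DESeq2 and the build NCBIM37, without settings. The authors deposited 1 table of normalized counts, an unlisted kind of unit here because the decimal point was lost. Beside them stand the authors' log2 fold changes of deficient against sufficient Th17 cells with standard errors, per the file headers, which served only to join names to rows.

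Each library's digits are whole reads times 1 step, and 99.993% of nonzero values came out whole. The power of 10 was set by agreement within a group, which raised 8.54% of nonzero values. Of 17850 rows 13726 were settled (posterior of at least 0.95). Of 8552 names 7746 were joined, 6564 of them to settled rows. Of 1000 decoy names with a shifted fold change 7 were still joined, so single names can be wrong. Of 6562 joined rows with Th17 powers past the limit of 0.95, 4 had wrong best powers. A join itself needs right Th17 powers, and rows that did not join are left out, so this is not an error rate. The powers of the IL-7 libraries, on which the levels above rest, are not checked by the join. The model of the powers was built after the values were seen. A wrong power would change a value 10-fold, and raised values are counted per row for an alternative below.

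The test was limma 3.58.1 (R 4.3.3) with a mean trend on log2(normalized count + 1) over 16 libraries without a block (12 residual degrees of freedom), for settled rows with a mean of at least 10 over the IL-7 libraries, with Benjamini-Hochberg adjustment and a threshold of 0.05. It replaces the count test that counts would have allowed. Scripts ran in Python 3.11.15 with numpy 2.4.6, pandas 2.3.3 and scipy 1.17.1, and were tested on simulated data. Marker sums were compared by exact two-sided permutation. Named genes were Sin3a, the 20 deepest falls and 20 largest rises among called named genes with separate groups and a higher group mean of at least 50, up to 6 called genes per list (or the 3 with the lowest p where none was called), and the cell type markers. Fsd1l, Kif23 and Il12rb1 lie outside this rule and were named after their values were seen. 2 genes of the lists are not reported here and are left out of the list counts. The 47 lists and the members were chosen with earlier results of these data known. Deviations from the group means correlated between sufficient and deficient libraries of the same number (0.48, 0.15, 0.47 and 0.59 over 12852 rows), so the numbers pair the samples. The 16-library fit with the number as a block is given where it changes a call. The block fit of the IL-7 libraries alone is given only for Sin3a and, as counts, for some lists without a call. Alternatives changed the pseudocount, filter, scaling, weights, block, rows and libraries, 26 settings in all.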

Additional observations from a re-analysis of the deposited data

Results flagged for a closer look

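Single libraries that stood apart from the other 3 of their group were sought in 282 groups of 4 over 141 genes, and 24 groups held one. Chance alone marks about 1 in 20 groups, and the cause was not tested. BASAL960 was high for Il13 (315), Pros1 (512), Tfrc (2889) and Rcor1 (2683), in normalized counts. BASAL960 was also high for Bcl3 (1455), Mrps21 (929), Slc9a5 (316) and Kif23 (1169.9). BASAL960 was low for P2rx4 (487), Cipc (775), Pde7a (1434) and Trim3 (305). BASAL960 was also low for Carf (176). BASAL959 was low for Plod3 (255). BASALTAM955 was high for Sin3a (2358) and Trp53i13 (989). BASALTAM955 was low for Mctp1 (18.1). BASALTAM957 was low for Neb (173). BASALTAM959 was low for Trav7-4 (55.0) and Aldoa (8948). BASALTAM960 was high for Tyms (274), Bak1 (945) and Slc35f2 (251). BASALTAM960 was low for Trim3 (583). The summed gamma-delta markers (Tcrg-C1, Sox13 and Cd163l1) were high in BASALTAM960, at 1272 normalized counts. BASAL960 was the library in 13 of the 24 groups.

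For 50 of the genes described above, the deficient-minus-sufficient log2 change in Th17 cells differed from that in IL-7 cells by the interaction test (limma adjusted p of 0.05, named rows 35.5%). Names exist only for genes with a negative change in Th17 cells, so a negative difference is favoured by the choice of names and no share is read from it. Genes lower by more in IL-7 than in Th17 cells had Th17 minus IL-7 differences of 2.18 for Sapcd2, 1.38 for Ly6g5b, 1.41 for AA467197, 1.38 for Mctp1 and 0.50 for Slc35f2. Sapcd2, Ly6g5b, AA467197 and Mctp1 were chosen for deep IL-7 falls, which favours a positive difference. Negative differences, largest first, were -1.97 for Pecam1, -1.67 for Alas2, -1.55 for Gm17767, -1.54 for Trav13n-4, -1.54 for Trav14d-3-dv8, -1.50 for Satb1, -1.47 for Fam221a and -1.42 for Trav7-4. Next came -1.36 for Cd68, -1.33 for Slc52a3, -1.25 for Carf, -1.24 for Katnal1, -1.24 for Pde7a, -1.21 for P2rx4, -1.16 for Tnfrsf18 and -1.16 for Ecm1. Then stood -1.14 for Cipc, -1.13 for Podnl1, -1.12 for Polr3gl, -1.05 for Pole2, -0.95 for Ctla4, -0.93 for Uap1l1, -0.88 for Trac and -0.82 for Ftl1. These were followed by -0.79 for Cd3d, -0.76 for Aldoa, -0.76 for Trim3, -0.75 for Spef2, -0.73 for Rbpj, -0.72 for Mpdu1, -0.69 for Prkab2, -0.67 for Thy1 and -0.66 for Pde3b. Smaller ones were -0.57 for Mafg, -0.57 for Trp53i13, -0.53 for Tnfrsf25, -0.52 for Plod3, -0.51 for Rps24, -0.50 for Lck, -0.50 for Ern1 and -0.48 for Mxi1. The smallest were -0.45 for Mcoln1, -0.44 for Cd3e, -0.42 for Itgal and -0.35 for Arnt.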

How the results depend on the processing

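Over 26 alternatives the direction of every called gene named in the text was kept, while the number of calls was not. Against 592 rows (262 with a name) called by limma, array weights gave 2794 (1284), the replicate block over 16 libraries 897 (426), and the replicate block in the IL-7 libraries alone 2535 (1221). The block over 16 libraries ended no call of a gene named in the text, and the genes it added to the calls are given with their values above. Rows without a raised value gave 250 (109), since fewer rows were tested, and the fit of rows with a name gave 228. With a library or a number left out, the counts ran from 21 to 710 rows and from 7 to 346 named rows, lowest without the BASAL957 number. The share of named rows whose Th17 and IL-7 changes differed, 35.5%, ran from 21.0% to 36.0% with a library or number left out. Sin3a, at -0.19, passed with the replicate block in the IL-7 libraries alone, also at -0.19.

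Of the genes named in the text, directions turned only for uncalled Cd68, Cd4 and Lck. Over left-out libraries and numbers Cd68 ran from -0.0051 to 0.19, Cd4 from -0.18 to 0.025 and Lck from -0.024 to 0.10. Some list medians near 0 also changed sign, among them glycolysis (-0.088 to 0.025), unfolded protein (-0.13 to 0.025) and cytosolic ribosomal genes (-0.037 to 0.061). TGF-beta (-0.037 to 0.017) and other histone and DNA modifying enzyme (-0.073 to 0.0022) medians did so too. List medians that moved by more than their spread when a library was left out ran from -0.59 to -0.35 for STAT5 targets, -0.023 to 0.13 for cyclin-dependent kinase inhibitors, -0.10 to -0.023 for the Sin3 complex, -0.072 to -0.014 for ATF4 genes, -0.42 to -0.24 for chemokine and homing receptors, -0.34 to -0.19 for TNF receptors, -0.16 to -0.088 for T cell receptor signalling and -0.057 to 0.041 for GPI anchor genes. The cause was not tested. The deficient-minus-sufficient difference of the B cell sum, -408 normalized counts, was -62.5 for Cd79a and Cd79b alone, since Blk was left out. The edgeR and DESeq2 alternatives, and list medians from edgeR, were not run because the deposited values are not counts, and voom weights (526 rows, 239 named) were added after the data were seen. Genes with few reads, such as Cdkn2a and Trav13n-4, are limited by depth.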
